A study of Homo sapiens with 6 samples.

Results

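The APOBEC3 genes encode 7 cytidine deaminases, APOBEC3A, APOBEC3B, APOBEC3C, APOBEC3D, APOBEC3F, APOBEC3G and APOBEC3H, and were taken by symbol from a table of 30560 genes. All 7 had a row. They were measured in HCT116, an established human colorectal carcinoma line whose genotype the labels give as WT. The 3 controls received DMSO, and 3 samples received irinotecan (CPT-11), the prodrug of a topoisomerase I poison, at 10 µM for 48 hours. The labels list 3 samples per group although the series design mentions duplicates, and do not say whether they are separate cultures. Every p-value therefore measures only how these samples varied, possibly for technical reasons.

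APOBEC3 enzymes turn cytosine into uracil in single-stranded DNA. They restrict retroviruses and retroelements by mutating the minus strand made during reverse transcription, and APOBEC3A and APOBEC3B are known as sources of cytosine mutations in tumour genomes. Each enzyme carries 1 or 2 zinc-binding deaminase domains, in which a histidine and a pair of cysteines hold the zinc ion and a glutamate takes part in catalysis. The genes arose by duplication and lie in a row on chromosome 22.

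The cluster ran from 38952741 to 39104067 on chromosome 22 of GRCh38 (151.3 kb), with all members on the plus strand. APOBEC3A (ENSG00000128383) spans bases 38952741 to 38992778 and APOBEC3B (ENSG00000179750) 38982347 to 38992804. APOBEC3C (ENSG00000244509) follows from 39014083 to 39020352, APOBEC3D (ENSG00000243811) from 39021113 to 39033276 and APOBEC3F (ENSG00000128394) from 39040604 to 39053910. APOBEC3G (ENSG00000239713) lies from 39077005 to 39087743 and APOBEC3H (ENSG00000100298) ends the row, from 39097224 to 39104067. By its coding sequence APOBEC3A, APOBEC3C and APOBEC3H held 1 zinc motif each, and APOBEC3B, APOBEC3D, APOBEC3F and APOBEC3G held 2. The DNA of the motif nearest the end of each coding sequence is given here from GENCODE release 29 transcripts, all on chromosome 22, because it shows which members a sequencing read can hardly tell apart. Capitals mark the codons of the histidine, the glutamate and both cysteines.

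APOBEC3A: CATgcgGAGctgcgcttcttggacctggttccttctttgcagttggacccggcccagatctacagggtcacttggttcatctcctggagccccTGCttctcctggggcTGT
APOBEC3B, the second motif: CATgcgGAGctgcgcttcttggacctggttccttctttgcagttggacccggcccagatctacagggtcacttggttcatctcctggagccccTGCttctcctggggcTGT
APOBEC3C: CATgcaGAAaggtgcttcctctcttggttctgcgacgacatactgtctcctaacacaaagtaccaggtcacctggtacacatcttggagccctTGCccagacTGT
APOBEC3D, the second motif: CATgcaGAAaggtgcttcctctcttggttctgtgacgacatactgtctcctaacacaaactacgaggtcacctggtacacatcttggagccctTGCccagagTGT
APOBEC3F, the second motif: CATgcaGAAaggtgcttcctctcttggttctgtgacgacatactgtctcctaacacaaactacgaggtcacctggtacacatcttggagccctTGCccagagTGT
APOBEC3G, the second motif: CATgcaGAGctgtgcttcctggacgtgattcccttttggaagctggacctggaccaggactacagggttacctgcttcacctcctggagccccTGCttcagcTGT
APOBEC3H: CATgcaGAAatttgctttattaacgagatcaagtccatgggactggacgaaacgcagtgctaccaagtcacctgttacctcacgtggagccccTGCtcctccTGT

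APOBEC3A and the second motif of APOBEC3B had 0 differences over 111 bases, and the second motifs of APOBEC3D and APOBEC3F had 0 differences over 105 bases. APOBEC3C differed from that pair at 4 of 105 bases. The first motifs of APOBEC3B and APOBEC3F, not printed, also had 0 differences over 105 bases. Local alignments of the coding sequences compared the best-matching part of each of the 21 pairs of members. Identity over that part ran from 59.5% (APOBEC3G with APOBEC3H) to 93.1% (APOBEC3A with APOBEC3B). The part covered 53.9% and 95.6% of the shorter coding sequence, respectively. APOBEC3C was 90.5% identical to APOBEC3D and 90.3% to APOBEC3F, each over 97.7% of the coding sequence of APOBEC3C. APOBEC3D and APOBEC3F shared a run of 222 identical coding bases, and APOBEC3A and APOBEC3B one of 196.

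This likeness bears unequally on the counts. Of 100-base windows along the reference transcript of each gene, 0.0% of APOBEC3C and 0.0% of APOBEC3H also stood in a transcript of another gene. The share was 11.3% for APOBEC3G and 13.5% for APOBEC3F, which share windows mostly with each other and, for APOBEC3F, also with APOBEC3D. It was 36.5% for APOBEC3B, mostly through APOBEC3A, and 39.0% for APOBEC3A, all through APOBEC3B. Annotation adds a second overlap, because the APOBEC3A gene spans 40.0 kb and runs through APOBEC3B. Of the exonic bases of APOBEC3B, 18.4% belong to both genes on the same strand. With APOBEC3B-AS1 on the opposite strand counted as well, 23.3% were shared with another gene. APOBEC3D shared 84.4% of its windows and 83.2% of its exonic bases with other genes, nearly all with AL022318.4. That annotated gene starts inside APOBEC3C, ends with APOBEC3D and has no row among the 30560 genes, so no count of it could be read. The levels of APOBEC3A, APOBEC3B and APOBEC3D are therefore uncertain. With 50-base windows APOBEC3C shared 1.2% and APOBEC3H 0.0%. The read length, the strandedness of the libraries, and how shared reads were counted, are not given in the labels.

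**Figure D1:**
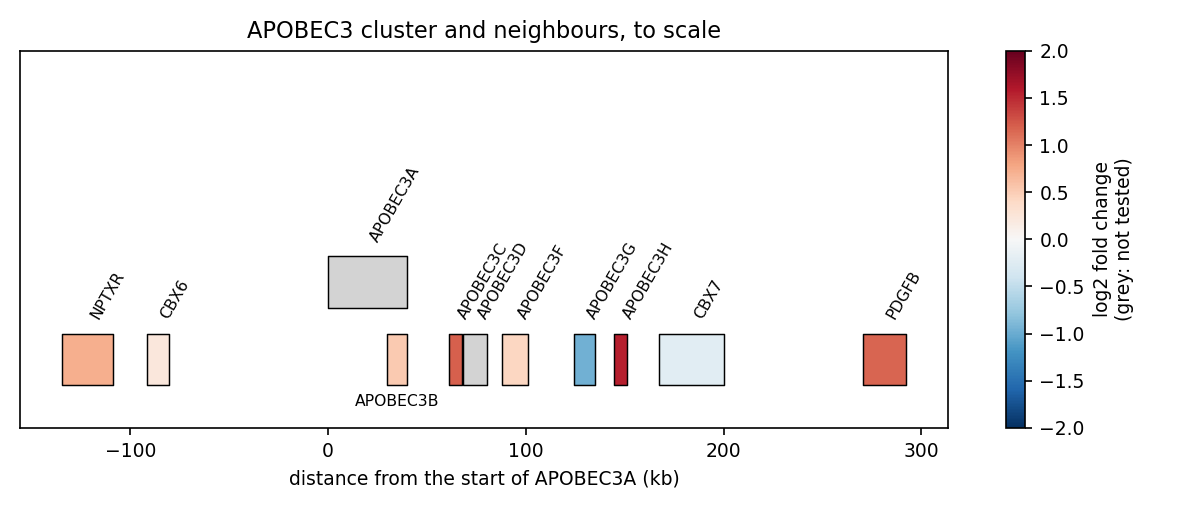
The APOBEC3 genes and the 4 nearest listed neighbours drawn to scale by distance from the start of APOBEC3A (kb), with APOBEC3A raised because it runs through APOBEC3B. Colour gives the log2 fold change, CPT-11 minus control, and grey marks APOBEC3A and APOBEC3D, which were too low to test; APOBEC3G is the one blue gene among the tested members.

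The libraries held 15398464 to 18031195 reads on genes. Of 8 epithelial markers, EPCAM averaged 3871 normalized counts in controls and 3744 after CPT-11. KRT8, KRT18, CDH1 and CDX2 were also well detected, and VIL1, CDH17 and LGALS4 averaged below 10. Such markers cannot identify the line, which is taken from the labels. KRT8, KRT18, CDX2 and CDH1 rose after CPT-11. Mitochondrial reads made up 6.84% to 7.45% of control libraries and 9.70% to 10.95% of CPT-11 libraries; all 5 tested members kept their calls when libraries were scaled without mitochondrial genes. Because members such as APOBEC3A and APOBEC3G are abundant in blood cells, lymphoid and myeloid markers were read too. Those of T and NK cells (4 of 7 with a row) summed to 28.9 to 35.0 normalized counts in controls, mostly CD8A, and 17.9 to 27.3 after CPT-11. Those of B cells (4 of 4) went from 8.49 to 13.9 in controls to 31.6 to 42.6, through CD79B, and those of myeloid cells (3 of 7) from 18.9 to 27.0 to 68.4 to 73.2, through ITGAM. Of fibroblast markers 2 of 4 had a row, with sums of 533 to 654 in controls and 934 to 1251 after CPT-11, nearly all COL1A1. The pan-leukocyte gene PTPRC had 3 and 7 reads over the groups, MS4A1 had 0 and 2, and CD14 had 17 and 3. The part of such genes in the results was not tested.

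After CPT-11, APOBEC3C, APOBEC3H, APOBEC3B and APOBEC3F rose and APOBEC3G fell. APOBEC3C, by far the most abundant member, was 2.30-fold higher and APOBEC3H 2.99-fold higher, while APOBEC3B and APOBEC3F were 1.45-fold and 1.35-fold higher and APOBEC3G was 1.84-fold lower in the ratio of group means. APOBEC3D and APOBEC3A stayed below the mean of 10 normalized counts that a gene needed to enter the test. Of the 5 tested members 4 rose and 1 fell, where 24.3% of all 16239 tested genes rose and 25.1% fell by the same rule (limma, adjusted p below 0.05). In all 5 the groups did not overlap, which held for 56.6% of all tested genes. In such bulk RNA, a change in the number of cells that express a gene cannot be told apart from a change in RNA per cell.

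**Figure D2:**
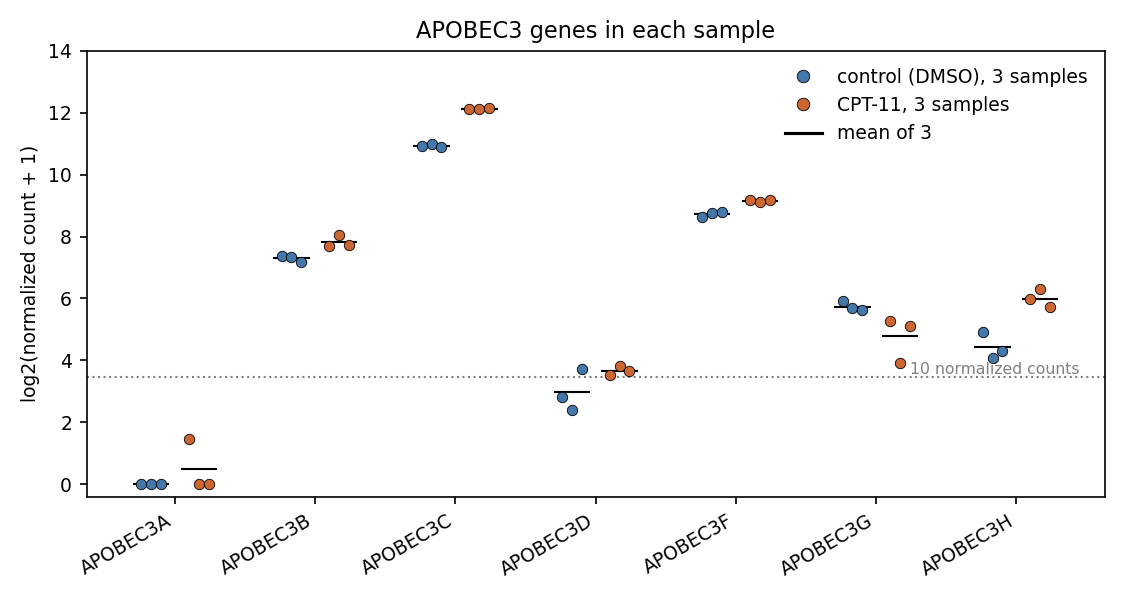
Each point is 1 sample, on a log2(normalized count + 1) axis, with controls in blue and CPT-11 samples in orange and bars at the mean of 3. The 3 CPT-11 points lie above the controls for APOBEC3B, APOBEC3C, APOBEC3F and APOBEC3H and below them for APOBEC3G, where CPT-11 replicate 2 is the lowest at 14.2 normalized counts.

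APOBEC3C is a deaminase with 1 domain that restricts retroviruses weakly. Controls 1, 2 and 3 had 1932, 2011 and 1915 normalized counts, and the treated samples had 4414, 4467 and 4569. The samples of a group lay within a few percent of each other (coefficient of variation 2.63% and 1.77%), and the lowest treated sample was far above the highest control. The log2 fold change was 1.20 (SE 0.08, 95% interval 1.03 to 1.37, adjusted p = 2.16e-09), and 4.8% of tested genes had a larger one. It rests on 5843 and 13760 reads over the groups.

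APOBEC3H, which also has 1 domain and is the most divergent member, was the most raised. The control samples had 29, 16.0 and 18.9 normalized counts, the treated ones 61.7, 78.0 and 51.5. All treated samples exceeded every control, although the gene was low and had a coefficient of variation of 32% within the controls. Its log2 fold change of 1.56 (SE 0.29, 95% interval 0.95 to 2.17, adjusted p = 0.000227) was exceeded by 2.5% of tested genes. Behind it stand 64 reads in controls and 196 after CPT-11.

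APOBEC3B is the nuclear member of the family and has 2 domains. Its normalized counts were 163, 160.5 and 144 in controls and 205, 265 and 209 after CPT-11. The increase was largest in CPT-11 replicate 2. The log2 fold change was 0.53 (SE 0.15, 95% interval 0.21 to 0.84, adjusted p = 0.00694), and without CPT-11 replicate 2 it was 0.41 and did not pass (adjusted p = 0.0602).

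APOBEC3F, a 2-domain restriction factor of retroviruses, had 396, 430.1 and 441 normalized counts in controls. The CPT-11 samples had 585, 551 and 579. These are modest but even increases, with no treated sample below any control. The log2 fold change was 0.44 (SE 0.11, 95% interval 0.21 to 0.66, adjusted p = 0.00258).

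APOBEC3G, the 2-domain member best known for blocking HIV that lacks Vif, went the other way. The control samples had 59.0, 50.3 and 48.1 normalized counts, the treated ones 37.9, 14.2 and 33.7. Every treated sample was below every control, but the treated samples differed widely among themselves (coefficient of variation 44.3%, against 11% in controls). The log2 fold change was -0.96 (SE 0.32, 95% interval -1.65 to -0.28, adjusted p = 0.0205). Without CPT-11 replicate 2 it was -0.54 with an adjusted p of 0.128, and in the authors' deposited table APOBEC3G has an adjusted p of 0.0774. The authors' deposited table gives 5.23e-49 for APOBEC3C, 0.000187 for APOBEC3H, 0.00164 for APOBEC3F and 0.0127 for APOBEC3B.

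APOBEC3D, another 2-domain restriction factor, averaged 9.64 normalized counts over all samples, just below the limit for testing. Its normalized counts were 6, 4.28 and 12.3 in controls and 10.6, 13.2 and 11.6 after CPT-11, from 23 and 36 reads over the groups. The groups overlapped, and in a fit of every gene in the table its log2 fold change was 0.69 (SE 0.52, adjusted p = 0.388).

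APOBEC3A, a potent DNA deaminase with 1 domain, was listed at 0 in all controls and in CPT-11 samples 2 and 3. CPT-11 sample 1 held 2 reads. A count of 0 allows up to 3 reads, which equal 2.65 to 3.21 normalized counts per library, so no fold change is given.

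**Figure D3:**
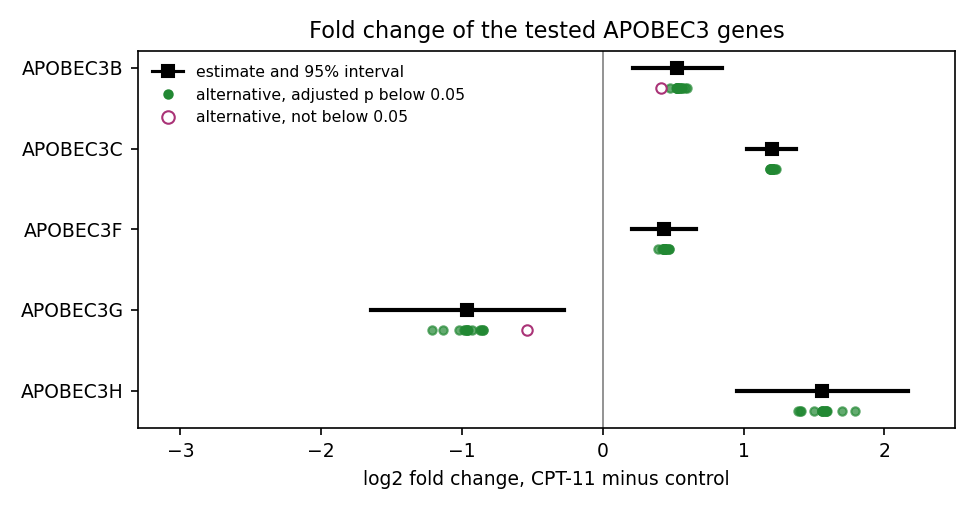
Squares give the log2 fold change, CPT-11 minus control, of the 5 tested members with 95% intervals from limma, and the circles under each square give its value in the alternative settings. Green circles passed and open circles did not; the open circles of APOBEC3B (0.41) and APOBEC3G (-0.54) are the fits without CPT-11 replicate 2.

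Members were compared in level per kilobase of gene length. In controls APOBEC3C stood at 693 ± 18.2 normalized counts per kb (SD, n = 3), APOBEC3F at 130.3 ± 7.3, APOBEC3B at 82.2 ± 5.4, APOBEC3H at 17.0 ± 5.4, APOBEC3G at 9.65 ± 1.06 and APOBEC3D at 2.97 ± 1.66. After CPT-11 they stood at 1591 ± 28.1, 176 ± 5.6, 120 ± 17.7, 51.0 ± 10.7, 5.26 ± 2.33 and 4.66 ± 0.52 in the same order. Samples of neighbours in this order did not overlap in either group, except that APOBEC3G and APOBEC3D overlapped after CPT-11; the rank of APOBEC3H above APOBEC3G in controls holds for the deposited lengths only. APOBEC3C was above 93.8% of tested protein-coding genes in level per kb in controls and above 98.2% after CPT-11, whereas APOBEC3B moved from above 44.5% to above 55.6%.

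The summed level of the 7 genes per kb was 935 ± 17.7 in controls and 1948 ± 27.6 after CPT-11 (SD, n = 3), a ratio of 2.08 that APOBEC3C largely sets. The share of APOBEC3C in that sum was 74.1% ± 0.57 in controls and 81.7% ± 0.98 after CPT-11. The share of APOBEC3F went from 13.9% ± 0.83 to 9.06% ± 0.38, that of APOBEC3B from 8.79% ± 0.49 to 6.13% ± 0.86 and that of APOBEC3G from 1.03% ± 0.12 to 0.27% ± 0.12. APOBEC3H had 1.82% ± 0.60 and 2.62% ± 0.54. The deposited length of APOBEC3G, 5437 bases, is the longest of the family and sets its place in the order. Per kb of the reference transcript (1834 bases for APOBEC3G and 988 for APOBEC3H), a length chosen after seeing the data, APOBEC3G had 28.6 ± 3.1 and APOBEC3H 21.6 ± 6.9 normalized counts in controls, with overlapping samples. On that scale APOBEC3G and APOBEC3D did not overlap after CPT-11.

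**Figure D4:**
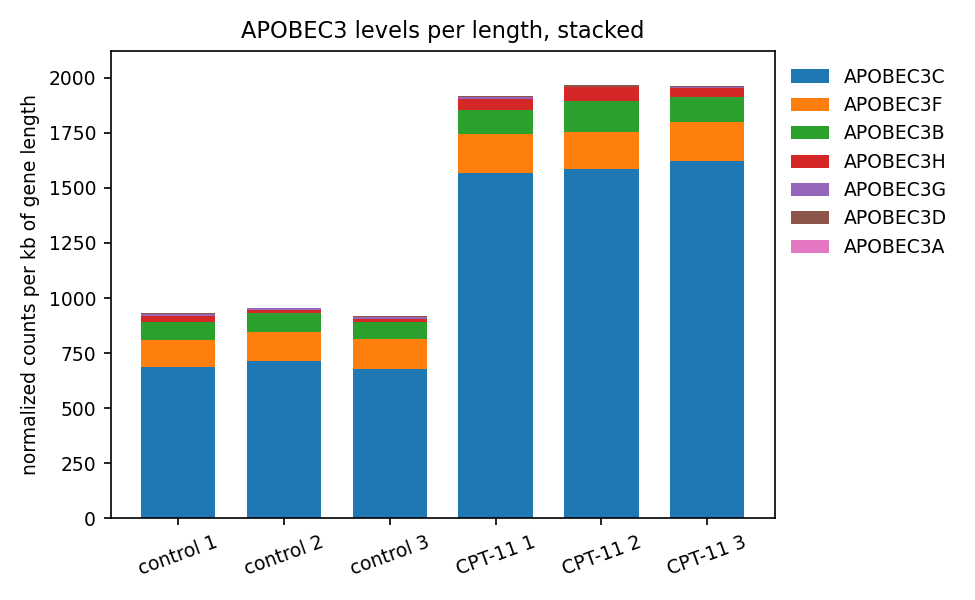
Stacked bars give normalized counts per kb of gene length for the 7 members in each of the 6 samples. The bars reach 921 to 955 in controls and 1916 to 1965 after CPT-11, and the blue part, APOBEC3C, makes up most of each.

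Members were compared with each other through the log2 ratio of each pair of the 5 tested members within each sample. The log2 ratio of APOBEC3C to APOBEC3G was 5.20 ± 0.16 in controls and 7.36 ± 0.74 after CPT-11 (SD, n = 3). That of APOBEC3B to APOBEC3C went from -3.64 ± 0.08 to -4.31 ± 0.21. The groups did not overlap in 8 of the 10 pairs, each with an exact two-sided permutation p of 0.1, the smallest that this test allows with 3 samples against 3 (0.125 adjusted over the 10 pairs), so this test could not pass for any pair and the ratios stand as a description. The groups overlapped for APOBEC3B with APOBEC3F, whose ratio moved by 0.09 on the log2 scale (exact permutation p = 0.7), and for APOBEC3C with APOBEC3H, where it moved by -0.36 (exact permutation p = 0.3).

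Genes on both sides of the cluster, 16.1 to 353.3 kb from it, were read from a list of 10. Of these 3 rose and 1 fell, shares to be set against the 24.3% and 25.1% of all tested genes. CBX6, a chromobox protein of Polycomb complexes that lies 80.4 kb before APOBEC3A, had 3784 ± 360.1 normalized counts in controls and 4456 ± 560 after CPT-11 (log2 fold change 0.23, adjusted p = 0.0643). CBX7, a related gene 16.1 kb beyond APOBEC3H, had 336 ± 25.9 and 287 ± 17.2 (-0.22, adjusted p = 0.141). PDGFB, a platelet-derived growth factor chain 119.3 kb beyond APOBEC3H, rose by 1.17 on the log2 scale. NPTXR, a neuronal pentraxin receptor 108.8 kb before APOBEC3A, rose by 0.73. MGAT3, a glycosyltransferase 353.3 kb beyond APOBEC3H, rose by 1.55 from only 16 reads over the controls. MGAT3 averaged 5.38 normalized counts in controls and 17.6 after CPT-11, so it entered the test only through its treated samples. With a minimum mean of 50 normalized counts, 2 of the list rose. SUN2, of the inner nuclear membrane, lies 158.6 kb before APOBEC3A and fell (-1.28). The median of the 10 was -0.02, and 0.02 with libraries scaled by total reads.

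Genes that act on or beside APOBEC3 enzymes were read from lists and are described by counts and medians, to be set against 24.3% of genes higher, 25.1% lower and a median of 0.0099 over all tested genes. APOBEC3B is known as a target of E2F factors and of the RB-family complexes that repress cell cycle genes. In the list of 20 E2F, RB and DREAM genes, 11 were lower and 0 were higher (median log2 fold change -0.43). The pocket protein gene RBL1 (-1.83), the activator E2F1 (-1.80) and the mitotic factor FOXM1 (-1.63) fell most. MYBL2, which joins the MuvB core in cycling cells, fell from 1636 ± 53.1 to 753 ± 38.8 normalized counts (SD, n = 3), and the repressor E2F4 had 1986 ± 32.2 and 1803 ± 196 (adjusted p = 0.213).

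Non-canonical NF-kB signalling and interferon are known inducers of members of the family. Of 18 NF-kB subunits and inducers 5 rose and 2 fell (median 0.15). The share that rose was near the 24.3% of all tested genes. BIRC3, an inhibitor of apoptosis, rose by 0.75, RELB by 0.74 and NFKB2 by 0.56; the last 2 encode the non-canonical subunits. PRKCA, a protein kinase C (-2.18), and NFKB1 (-0.31) fell; without control replicate 2 or CPT-11 replicate 2, and with the replicate block, 1 of them did. Of 32 listed genes of interferon signalling and response, OAS2, RSAD2 and IFI44L were too low to test. Of the 29 tested, 14 rose and 3 fell (median 0.28). Leaving out each sample in turn gave 11 to 13 that rose, and the fit without the low-value filter gave 11. The ubiquitin-like ISG15 was 3.27-fold higher, and IFI6 and OASL, also interferon-stimulated, rose by 1.61 and 1.07 on the log2 scale. The kinase JAK1 (-0.43), the receptor chain IFNGR2 (-0.35) and OAS3 (-0.26) fell, and without CPT-11 replicate 3 only 1 of the list did. IRF9, a transcription factor of the interferon response, had 27.5 ± 5.3 and 36.2 ± 0.8 normalized counts (adjusted p = 0.245).

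Uracil made by these enzymes is removed by base excision repair. Of 25 genes for uracil and abasic site repair 10 fell and 6 rose (median -0.14). Among all tested genes 25.1% fell and 24.3% rose, and the share of the list that rose was near the latter. UNG, the main uracil-DNA glycosylase, fell by 0.95 on the log2 scale (SE 0.09), with 2177 ± 35.4 normalized counts in controls and 1123 ± 55.0 after CPT-11. The glycosylase NEIL3 (-1.74), the flap endonuclease FEN1 (-1.35) and DUT, which keeps dUTP low (-1.31), fell most. Among those that rose were the endonuclease APEX2 (0.91), SMUG1, another uracil glycosylase (0.59), and the alkyladenine glycosylase MPG (0.56).

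Of 13 tested genes in a list of other deaminases, of nucleosides, nucleotides and RNA, and their RNA-binding partners, 6 rose and 0 fell (median 0.18). The list was not limited to genes related to APOBEC3. A1CF, the RNA-binding partner of APOBEC1, rose by 1.16 from 14.5 normalized counts in controls, ADA, adenosine deaminase, by 1.06 and ADAT1, a tRNA deaminase, by 0.52. APOBEC1, the editing enzyme of apolipoprotein B mRNA, had 2 reads over the controls and 0 after CPT-11.

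**Figure D5:**
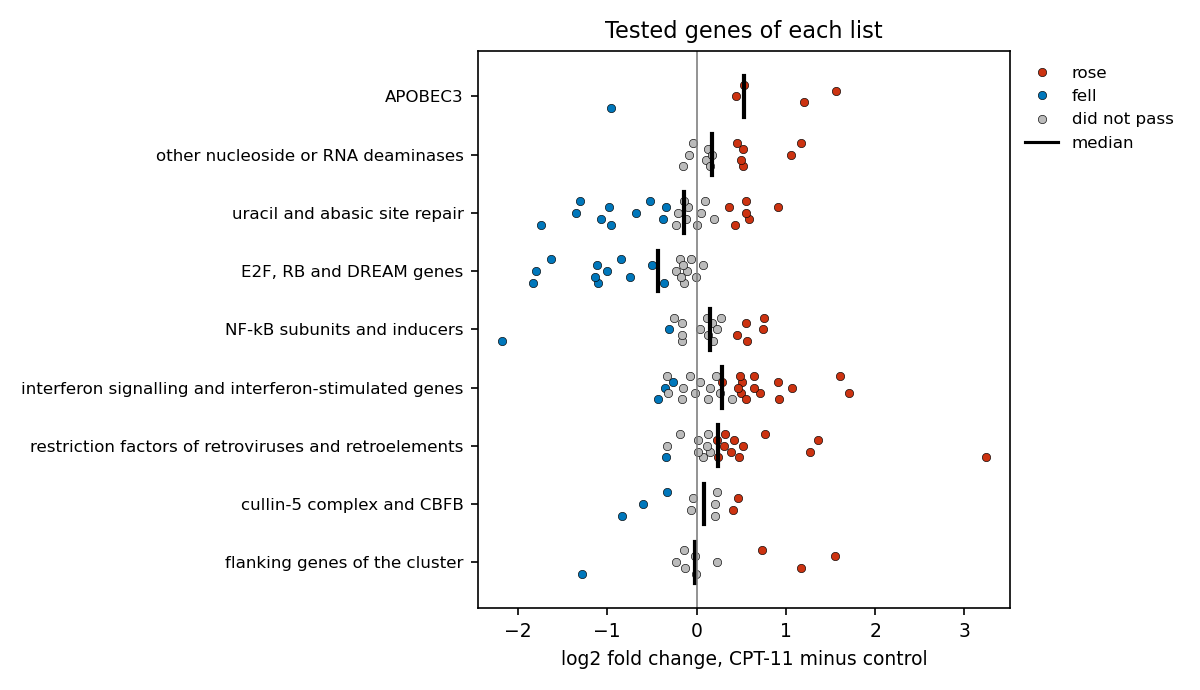
Log2 fold changes, CPT-11 minus control, of the tested genes of each list, with 1 point per gene and a bar at the median. Genes that rose are red, those that fell are blue and those that did not pass are grey; the E2F, RB and DREAM list has no red point, and APOBEC3G is the one blue point among the APOBEC3 genes.

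The genes whose profile over the 6 samples was most like that of a member were sought among 10790 protein-coding genes averaging 100 normalized counts or more, by the distance between log2 values centred on each gene's mean. The 3 nearest to APOBEC3C were CCND1, which encodes cyclin D1 (distance 0.05, against a median of 1.5 over the candidates), GPRC5A, an orphan receptor (0.06), and ALDH1A3, a retinaldehyde dehydrogenase (0.11). The 3 nearest to APOBEC3B were FAM84B (0.09, against a median of 0.83), FAM216A (0.11) and PLCD4, a phospholipase C (0.15). The distance uses the difference between the groups, so a fold change near that of the member follows from the choice, and the median distance is no reference for the nearest of so many genes.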

How the data were processed

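The authors deposited one table of genes for 6 RNA sequencing samples, with a normalized count per gene and sample, a signal that is never negative. Tools listed in the submitters' processing notes, without their roles, include HISAT2 2.1.0 and featureCounts 1.6.2, beside fastp 0.19.3, DESeq2 1.22.1 and the build GRCh38. All 30560 genes had the start and end that GENCODE release 29 gives. Dividing each library by the value of 1 read gave whole reads for 100% of values (tolerance 0.001 read); on these reads edgeR called 4058 genes higher and 4021 lower, where limma called 3939 and 4083. The authors' log2 fold change, p-value and adjusted p-value, and the length of each gene, stand in the deposited table per the file headers; neither the method behind them nor the handling of reads on overlapping or near-identical genes is stated there.

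The 16239 genes averaging 10 normalized counts or more were tested with limma 3.58.1 (mean-variance trend, R 4.3.3) on log2(normalized count + 1), with Benjamini-Hochberg adjustment over all of them and a threshold of 0.05. Only the limma and edgeR fits were tried on simulated counts. Far fewer genes changed there than were called here, so that trial does not measure the error of the reported calls. Other settings tried were the pseudocount, the low-value filter, the scaling of libraries, edgeR 4.0.16 and DESeq2 1.42.0 on the recovered reads, the replicate number as a block and leaving out each sample. Coding sequences and exon overlaps were computed from GENCODE release 29 in Python 3.11.15 with biopython 1.88. The members and gene lists were chosen with earlier results of these data known. All members were named. Of each list, up to 3 genes that rose most and up to 3 that fell most among those past the threshold were named, beside a few genes named whatever their result. Some of these genes and 1 list are not reported here. Limits set from counts cover counting error only.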

Additional observations from a re-analysis of the deposited data

How the results depend on the processing

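The 16 alternative settings left the direction of all 5 tested APOBEC3 genes as reported. APOBEC3C, APOBEC3F and APOBEC3H passed in each setting in which they were tested. Leaving out each sample in turn gave a log2 fold change of 0.41 to 0.60 for APOBEC3B and of -1.22 to -0.54 for APOBEC3G, each failing without CPT-11 replicate 2 alone, so that 3 to 4 members rose and 0 to 1 fell; the other settings kept APOBEC3B past the threshold. With a minimum mean of 50 normalized counts APOBEC3G and APOBEC3H were no longer tested, and 0 members fell by construction. Samples of both groups share replicate numbers, and no pairing by number was seen. The correlations of same-numbered deviations from the group means were -0.227, -0.006 and -0.102, and no sample correlated best with its own number. With 3 samples per group these correlations cannot decide whether samples were paired. With the replicate block 3309 genes rose and 3503 fell, against 3939 and 4083, and 4 and 1 members. The log2 ratio of APOBEC3G to APOBEC3H in level per kb in controls was -0.82 with the deposited lengths and 0.41 with those of the reference transcripts, a setting added after seeing the data; the lengths alone differ. Reads limit APOBEC3A and APOBEC3D, and APOBEC3G rests on 157 and 89 reads over the groups.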

Other observations

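HIV Vif brings a cullin-5 ubiquitin ligase with CBFB to APOBEC3 proteins. Of 10 genes for this ligase and CBFB, 2 rose and 3 fell after CPT-11 (limma, median log2 fold change 0.08). These shares are near those of all tested genes, of which 24.3% rose and 25.1% fell. The subunits ELOB and RNF7 rose by 0.47 and 0.41. CBFB, which also partners RUNX factors, fell from 2670 ± 202 to 1492 ± 46.2 normalized counts (SD, n = 3), and the conjugating enzymes UBE2R2 (-0.61) and UBE2L3 (-0.33) also fell. With libraries scaled by total reads, or without control replicate 1, 4 rose.

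Of 21 tested restriction factors of retroviruses and retroelements 12 rose and 1 fell, with a median log2 fold change of 0.24. Over all tested genes 24.3% rose and 25.1% fell. TRIM22, an antiviral ubiquitin ligase, was 9.69-fold higher, with 27.4 ± 7.5 normalized counts in controls and 265 ± 58.0 after CPT-11. SLFN5 rose by 1.36 on the log2 scale and TRIM5, which recognises retroviral capsids, by 1.27. FAM208A, which encodes the HUSH subunit TASOR that silences retroelements, fell (-0.35). Leaving out each sample in turn gave 8 to 11 that rose. The replicate block gave 8, and the fit without the low-value filter gave 9.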
